A study of Homo sapiens with 6 samples.

Results

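HOX genes encode homeodomain transcription factors and lie in 4 clusters on different chromosomes. The members described here were every gene whose symbol in the array's annotation was HOX, a cluster letter from A to D and a number, without antisense transcripts, and every probe set that named such a gene alone. This rule gave 28 genes with 44 probe sets, out of 19775 genes and 41091 probe sets that named a single gene. They were 1 gene of the HOXA cluster on chromosome 7 (HOXA2), 10 of the HOXB cluster on chromosome 17, 9 of the HOXC cluster on chromosome 12 and 8 of the HOXD cluster on chromosome 2. The remaining HOX genes were not analysed here.

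RNA came from NTERA2/D1, an established human embryonal carcinoma line from a testicular teratocarcinoma, on arrays that read each transcript with short oligonucleotide probe sets. The VAMP7 siRNA group received siRNA against human VAMP7, a vesicle SNARE protein of late endosomes and lysosomes, and the scrambled siRNA group received a nonspecific siRNA, with 3 arrays in each group. In both groups the siRNA was added 24 h after plating and left for 72 h. No differentiating agent is named for either group, and the labels do not say whether the siRNA was a pool or a single sequence. The question put to the HOX genes was whether any of them differed between VAMP7 siRNA and scrambled siRNA cells, and whether cluster or position within a cluster went with the difference.

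In vertebrate embryos HOX genes are switched on in the order in which they lie along the chromosome: genes at the 3′ end of a cluster (low numbers) come on early and mark the hindbrain and neck, and genes at the 5′ end (high numbers) come on late and mark the trunk, limbs and tail. Genes with the same number in different clusters are paralogues that descend from 1 ancestral gene. In pluripotent cells the clusters are held silent by Polycomb complexes, and retinoic acid, which makes NTERA2 cells differentiate along the neural lineage, activates them from the 3′ end. HOX proteins bind DNA together with TALE homeodomain cofactors of the PBX and MEIS families.

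VAMP7 itself read 137, 175 and 149 intensity units on the VAMP7 siRNA arrays and 2487, 2617 and 2741 on the scrambled siRNA arrays, so 5.87% of its signal remained. Its log2 fold change was -3.71 (SE 0.11, limma adjusted p = 8.96e-05), and it was the only gene called at an adjusted p under 0.05, which is 0.00506% of all genes (0.00183% of all probe sets). VAMP7 siRNA replicate 1 stood apart from the other 5 arrays on the leading principal component (29.5% of the variance). Its mean correlation with the others was 0.988, against 0.990 to 0.991 for each of the rest. In a bulk sample, fewer cells that express a gene and less RNA per cell cannot be told apart.

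HOX genes were near background on every array more often than all genes were. Background was set on each array at the 95th percentile of 107 probe sets for olfactory receptors, the odorant receptors of the nasal epithelium, and this threshold was 61.7, 58.7 and 54.9 units on the VAMP7 siRNA arrays and 67.5, 61.1 and 56.6 units on the scrambled siRNA arrays. The probe sets of 15 of the 28 HOX genes (53.6%) were at or below the threshold on all 6 arrays, against 26.6% of all genes. Another 11 were over it on 1 to 5 arrays, against 13.7% of all genes. HOXB2 and HOXC4 were over it on every array (7.14%), against 59.7% of all genes. Olfactory receptor genes, taken by the same rule, were near background for 79.3% and above it for 1.22% of 82, so the HOX genes lay between them and all genes. Because the threshold was set from olfactory receptor probe sets, the olfactory receptor shares follow largely from it. Counted by probe set, 2 of the 44 were above background on every array, 13 were mixed and 29 were near background, against 50.2%, 16.4% and 33.4% of all probe sets that named a single gene. Each gene was represented by its brightest probe set in the counts by gene. A reading near background does not show that a transcript is absent, because probe sets differ in affinity.

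The 2 groups had similar numbers of HOX genes over the threshold. There were 6, 9 and 7 on the VAMP7 siRNA arrays and 5, 7 and 5 on the scrambled siRNA arrays, so the groups overlapped. The median HOX intensity was 26.0, 26.5 and 25.3 units on the VAMP7 siRNA arrays and 30.0, 24.4 and 21.5 units on the scrambled siRNA arrays, which also overlapped. Single readings ran between 0.878 units for HOXD12 and 175 units for HOXC4, and none of the 28 genes reached the median gene of the arrays on the log2 scale.

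**Figure D1:**
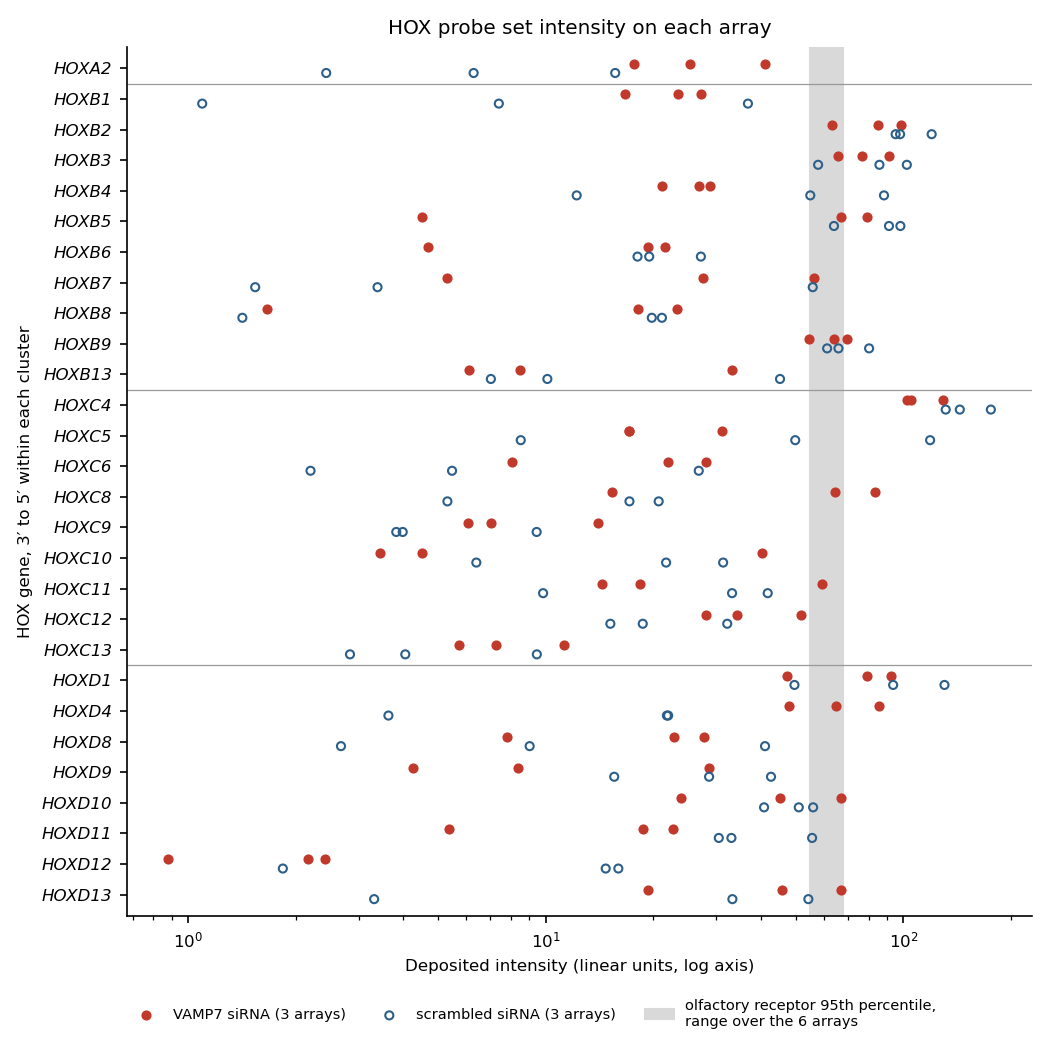
Deposited intensity of the probe set standing for each HOX gene on every array (log axis, linear intensity units), with genes in order of 3′ to 5′ position within each cluster and lines between clusters. Filled points are the 3 VAMP7 siRNA arrays, open points the 3 scrambled siRNA arrays, and the grey band spans the olfactory receptor 95th percentile over the 6 arrays (54.9 to 67.5 units). HOXC4 lies to the right of the band on all 6 arrays, HOXB2 was over each array's own threshold, and 15 genes were at or below the threshold on every array.

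**Figure D2:**
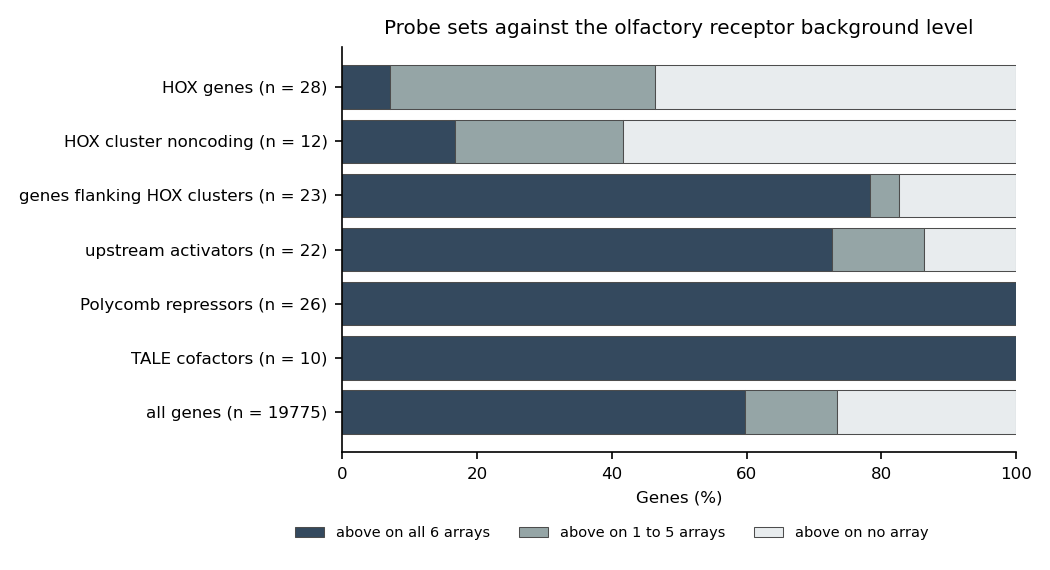
Share of genes (percent) whose probe set was over the background threshold on all 6 arrays, on 1 to 5 arrays, or on none, for the 28 HOX genes, the noncoding transcripts and flanking genes of the clusters, the upstream activators, Polycomb repressors and TALE cofactors, and all genes. Of the HOX genes 7.14% were above on every array, against 59.7% of all genes.

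No HOX gene differed between the groups at an adjusted p under 0.05 (limma, adjusted over all 19775 genes; 0 of 28). At an unadjusted p under 0.05 there were 5 of 28 (17.9%), of which HOXA2, HOXC8 and HOXD4 were higher and HOXC4 and HOXD11 lower in VAMP7 siRNA cells. Of all genes 6.66% passed that level, 3.63% higher and 3.03% lower, and of the 7969 genes not above background on all 6 arrays 7.89% passed, against 4 of the 26 HOX genes among them (15.4%). HOXD4 alone was under this level in every alternative that kept HOX genes in the fit. HOXC4 was over it with an intensity trend in the variance model, and HOXC8 with an offset of 10, with median centring and with the replicate block. The intensities of the 2 groups did not overlap for 4 HOX genes, HOXA2 and HOXD4 higher and HOXC4 and HOXD11 lower, which is 14.3%. Over all genes 13% did not overlap (6.68% higher, 6.29% lower). Over the genes not above background 10% did not, against 11.5% of the 26 HOX genes among them. Of the 44 HOX probe sets 5 (11.4%) had an unadjusted p under 0.05, against 6.62% of all probe sets, and 5 (11.4%) did not overlap, against 12.5% of those that named a single gene. The shares at an unadjusted p under 0.05 were thus higher among HOX genes than among all genes, and the shares that did not overlap were close to those of all genes. These are counts of 5 or fewer, and the difference in share was not tested. With 3 arrays against 3, an exact permutation test of a single gene cannot go below p = 0.1.

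The HOX log2 fold changes were larger in size and less precise than those of the median gene. Their log2 fold changes, computed on log2(intensity + 50), lay between -0.51 for HOXB5 and 0.82 for HOXD4, with 13 above 0 and 15 below, against 50.8% above 0 over all genes. The median was -0.06, against 0.003 for all genes, and 0.01 over all 44 HOX probe sets. The median size without sign was 0.20, against 0.11 for all genes, 0.14 for the genes not above background and 0.19 for the olfactory receptor genes. The median standard error was 0.18, against 0.14 for all genes and 0.18 for those not above background.

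**Figure D3:**
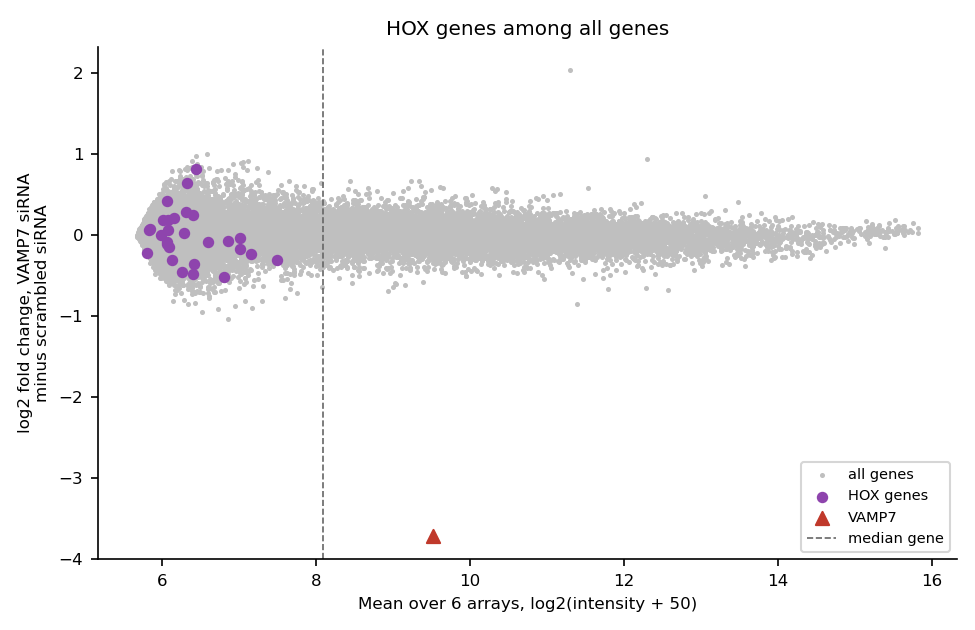
Log2 fold change (VAMP7 siRNA minus scrambled siRNA) against mean log2(intensity + 50) for all 19775 genes, with the 28 HOX genes marked. All 28 HOX genes lie on the dim side of the plot, below the median gene at 8.09 (dashed line), and VAMP7 is at -3.71.

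HOXD4, a gene of the posterior hindbrain and neck whose enhancer answers to retinoic acid, had the highest log2 fold change of the 28 with the brightest probe sets and all arrays. Its brighter probe set read 47.7, 64.7 and 85.7 units on the VAMP7 siRNA arrays and 3.63, 22.0 and 21.8 units on the scrambled siRNA arrays. All VAMP7 siRNA readings were above all scrambled siRNA readings, and only VAMP7 siRNA replicates 2 and 3 were over the background threshold. The means were 66.0 ± 19.0 units in VAMP7 siRNA cells and 15.8 ± 10.5 units in scrambled siRNA cells (SD, n = 3 each). On the log2 scale the difference was 0.82 (SE 0.17, 95% interval 0.42 to 1.22) with a limma adjusted p of 0.499, the smallest of the HOX genes. Because the scrambled siRNA readings were all below background, this is not a measured fold of the transcript, and its size depends on the offset: it was 1.63 with an offset of 10 and 0.52 with an offset of 100. The other HOXD4 probe set stayed near background on all arrays, with 3.26, 9.10 and 4.86 units in VAMP7 siRNA cells and 7.78, 3.05 and 1.44 units in scrambled siRNA cells, and its log2 fold change was 0.04 (SE 0.10). With the mean of both probe sets HOXD4 had a log2 fold change of 0.43, below the 0.64 of HOXC8, and without VAMP7 siRNA replicate 2 it had 0.82, against 0.95 for HOXC8.

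A further 3 probe sets named HOXD4 together with HOXD3 and LOC401021 and were therefore not members. The brightest of them read 73.6, 9.82 and 47.0 units in VAMP7 siRNA cells and 55.3, 43.3 and 32.8 units in scrambled siRNA cells, so the groups overlapped. The other two were near background on every array, with 1.44 to 18.3 units in VAMP7 siRNA cells and 2.90 to 19.1 units in scrambled siRNA cells.

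HOXC4, a gene of the neck region that is also expressed in lymphoid cells, was 1 of the 2 members above background throughout. It read 129, 105 and 102 units on the VAMP7 siRNA arrays and 175, 131 and 144 units on the scrambled siRNA arrays. Every VAMP7 siRNA reading was below every scrambled siRNA reading, although VAMP7 siRNA replicate 1 and scrambled siRNA replicate 2 differed by little. The means were 112 ± 14.4 and 150 ± 22.8 units (VAMP7 siRNA and scrambled siRNA, SD, n = 3 each), which gave a log2 fold change of -0.30 (SE 0.12, interval -0.59 to -0.01, limma adjusted p = 0.738).

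HOXB2, which helps pattern the hindbrain and its facial motor neurons, was the other. It read 98.2, 63.0 and 84.7 units on the VAMP7 siRNA arrays and 95.1, 119.9 and 97.8 units on the scrambled siRNA arrays. The groups overlapped through VAMP7 siRNA replicate 1. The means were 81.9 ± 17.8 units in VAMP7 siRNA cells and 104 ± 13.6 units in scrambled siRNA cells (SD, n = 3 each), with a log2 fold change of -0.23 (SE 0.13, limma adjusted p = 0.804). It was -0.12 without VAMP7 siRNA replicate 2. Both members above background thus had lower means in VAMP7 siRNA cells, and neither difference was called.

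HOXA2, which sets the identity of the second branchial arch, read 41.0, 25.3 and 17.7 units in VAMP7 siRNA cells and 15.6, 6.28 and 2.43 units in scrambled siRNA cells. The groups did not overlap, and all 6 readings lay below the background threshold. Its log2 fold change was 0.42 (SE 0.15, 95% interval 0.08 to 0.76, limma adjusted p = 0.717), and 1.09 with an offset of 10 and 0.24 with an offset of 100.

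HOXD11, which with its paralogues shapes the forearm and the kidney in mice, read 18.7, 22.7 and 5.36 units in VAMP7 siRNA cells and 55.5, 33.0 and 30.5 units in scrambled siRNA cells. The groups did not overlap, and again no reading was over the threshold. Its log2 fold change was -0.45 (SE 0.15, 95% interval -0.82 to -0.08, limma adjusted p = 0.717), and -0.99 with an offset of 10 and -0.27 with an offset of 100.

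HOXC8, a gene of the thoracic region and the brachial spinal cord, read 83.2, 15.3 and 64.2 units in VAMP7 siRNA cells and 5.31, 20.7 and 17.1 units in scrambled siRNA cells. VAMP7 siRNA replicates 1 and 3 were high and over the threshold, while replicate 2 lay among the scrambled siRNA arrays. HOXC8 had a log2 fold change of 0.64 (SE 0.26, 95% interval 0.02 to 1.26, limma adjusted p = 0.743), and 1.26 with an offset of 10 and 0.41 with an offset of 100.

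The 250 bases upstream of the transcription start are shown for the 4 genes whose groups did not overlap, to compare the promoters of members that were higher and lower. They come from RefSeq on build GRCh38.p14, each 5′ to 3′ on the gene's strand, with CpG dinucleotides in capitals, since CpG-rich promoters are typical targets of Polycomb complexes. The windows are chr7:27102684-27102933 (minus strand) for HOXA2, chr2:176151300-176151549 (plus strand) for HOXD4, chr12:54016638-54016887 (plus strand) for HOXC4 and chr2:176107030-176107279 (plus strand) for HOXD11.
HOXA2: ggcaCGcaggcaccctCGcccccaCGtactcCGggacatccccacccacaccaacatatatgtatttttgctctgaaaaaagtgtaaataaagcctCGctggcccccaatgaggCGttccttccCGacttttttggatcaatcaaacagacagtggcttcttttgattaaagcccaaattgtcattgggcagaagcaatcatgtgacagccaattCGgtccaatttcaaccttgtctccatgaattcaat
HOXD4: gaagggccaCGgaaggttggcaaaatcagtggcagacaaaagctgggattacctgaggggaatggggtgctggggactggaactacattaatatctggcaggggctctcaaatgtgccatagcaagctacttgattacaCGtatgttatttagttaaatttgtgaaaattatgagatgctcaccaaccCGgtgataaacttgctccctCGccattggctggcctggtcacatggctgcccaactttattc
HOXC4: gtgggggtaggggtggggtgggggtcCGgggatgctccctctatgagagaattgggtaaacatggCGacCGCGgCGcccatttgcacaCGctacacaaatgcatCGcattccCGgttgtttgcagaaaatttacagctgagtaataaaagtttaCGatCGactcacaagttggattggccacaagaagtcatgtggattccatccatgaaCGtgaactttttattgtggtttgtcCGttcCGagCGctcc
HOXD11: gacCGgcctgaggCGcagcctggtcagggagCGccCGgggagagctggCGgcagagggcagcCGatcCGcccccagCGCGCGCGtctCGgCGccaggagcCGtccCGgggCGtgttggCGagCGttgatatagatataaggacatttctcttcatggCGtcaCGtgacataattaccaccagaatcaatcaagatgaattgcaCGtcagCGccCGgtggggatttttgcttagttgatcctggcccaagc
They held 8 CpG for HOXA2, 4 for HOXD4, 14 for HOXC4 and 23 for HOXD11. In the windows of other members with a log2 fold change above 0 there were 7 (HOXB1), 28 (HOXD8) and 21 (HOXD13). Those of members below 0 held 14 (HOXC5), 16 (HOXD12), 23 (HOXD10) and 31 (HOXD1), so CpG numbers overlapped between the directions. This is a description of single windows and no test was made.

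RefSeq windows were matched for 11 of the 28 members, and HOXC4 and HOXC5 shared the same one. The median was 16 CpG (range 4 to 31) for these 11, against 11 over all 35116 promoter windows, and the median G+C content was 57.2%, against 58%. Motifs were searched on both strands (TAATTA reads the same on both), and no window of a member held more than 1 of them. AGGTCA, the half-site of retinoic acid receptors, was in 0 of the 11 windows and in 12.1% of all. TGACAG, the core bound by MEIS and TGIF proteins, was in the HOXA2 window only (9.09%, against 13% of all). TAATTA, a homeodomain core, was in the HOXD11 window only (9.09%, against 4.35% of all).

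Among the anterior genes (numbers 1 to 3), 1 of 5 was above background on all arrays, 2 were mixed and 2 were near background. HOXB3, a hindbrain gene, was over the threshold on 5 arrays, with 65.7 to 91.0 units in VAMP7 siRNA cells and 57.7 to 102.2 units in scrambled siRNA cells. HOXD1, which acts in pain-sensing neurons in mice, was over it on 4 arrays, with 47.3 to 92.4 units in VAMP7 siRNA cells and 49.6 to 130.2 units in scrambled siRNA cells. The groups overlapped for both genes, and the log2 fold changes were -0.03 and -0.17. HOXB1, which marks a single hindbrain segment and is a direct target of retinoic acid receptors, was near background with 16.6 to 27.1 units in VAMP7 siRNA cells and 1.10 to 36.7 units in scrambled siRNA cells (log2 fold change 0.19, SE 0.20).

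Among the 11 central genes (numbers 4 to 8), 1 was above background, 5 were mixed and 5 were near background. HOXB5, which acts in enteric nerve precursors, had the lowest log2 fold change of all members, -0.51 (SE 0.32), with 79.0, 66.7 and 4.49 units in VAMP7 siRNA cells and 91.1, 63.9 and 98.0 units in scrambled siRNA cells. VAMP7 siRNA replicate 3 alone lay below the scrambled siRNA range. HOXB4, a regulator of blood stem cells, read 21.1 to 28.7 units in VAMP7 siRNA cells and 12.2 to 88.2 units in scrambled siRNA cells (log2 fold change -0.36, SE 0.27). HOXC5 read 17.1 to 31.0 units in VAMP7 siRNA cells and 8.51 to 118.7 units in scrambled siRNA cells (log2 fold change -0.48, SE 0.35). For HOXB4 and HOXC5, scrambled siRNA replicate 2 alone was over the threshold. HOXB6, HOXB7, HOXB8, HOXC6 and HOXD8 were near background, with log2 fold changes between -0.14 and 0.21.

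Among the 12 posterior genes (numbers 9 to 13), none was above background on all arrays, 4 were mixed and 8 were near background. HOXB9, a gene of the thoracic region, was over the threshold on 4 arrays, with 54.4 to 69.7 units in VAMP7 siRNA cells and 61.2 to 80.1 units in scrambled siRNA cells (log2 fold change -0.08, SE 0.11). HOXD10, which patterns lumbar motor neurons, HOXC11, and HOXD13, the digit gene altered in synpolydactyly, were each over it on 1 VAMP7 siRNA array (replicate 2 for HOXD10 and HOXC11, replicate 3 for HOXD13). Their log2 fold changes were -0.08, 0.02 and 0.25. HOXC12 read 28.0 to 51.8 units in VAMP7 siRNA cells and 15.2 to 32.2 units in scrambled siRNA cells, with a log2 fold change of 0.29 (SE 0.14). HOXD12 had some of the lowest readings on the arrays, with 0.878 to 2.41 units in VAMP7 siRNA cells and 1.84 to 16.0 units in scrambled siRNA cells (log2 fold change -0.22). HOXD9 had -0.31, and HOXC9, HOXC10, HOXC13 (a hair gene) and HOXB13 (a prostate gene) lay between -0.11 and 0.08, all near background.

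Values of both signs occurred in every cluster with more than 1 member and in every position class. The median log2 fold change was -0.08 over the 10 HOXB genes (3 above 0, 7 below), 0.07 over the 9 HOXC genes (6 above, 3 below) and -0.13 over the 8 HOXD genes (3 above, 5 below), and HOXA2 stood alone at 0.42. It was -0.03 over the anterior, 0.005 over the central and -0.08 over the posterior genes. Over all HOX probe sets, in place of the brightest of each gene, the median was above 0 for HOXD (0.04), the anterior genes (0.06) and the posterior genes (0.01), so these signs rest on the choice of probe set. Across the 28 genes the log2 fold change had a Pearson r of 0.006 and a Spearman rho of 0.08 with the paralogue number. Within clusters r was 0.07 for HOXB (n = 10), 0.42 for HOXC (n = 9) and -0.30 for HOXD (n = 8). The number of arrays on which a gene was over background had r = -0.49 and rho = -0.43 with the paralogue number (n = 28), lower numbers being over it on more arrays. These points share the same 6 arrays, and probe sets differ in affinity, so the correlations are given as descriptions.

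Paralogues of the same number had log2 fold changes of the same sign in some groups and not in others. In group 4, HOXB4 and HOXC4 had log2 fold changes of -0.36 and -0.30 and HOXD4 had 0.82. In group 5, HOXB5 and HOXC5 had -0.51 and -0.48. In group 8, HOXB8, HOXC8 and HOXD8 had 0.005, 0.64 and 0.07. No difference in these groups was called.

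**Figure D4:**
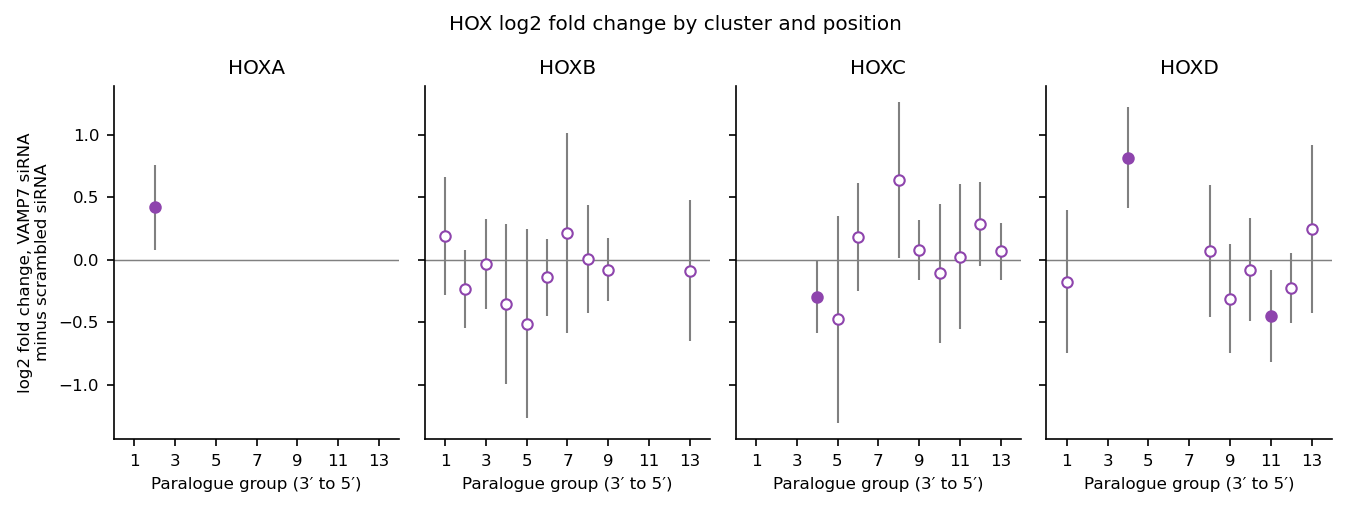
Log2 fold change (VAMP7 siRNA minus scrambled siRNA) of each HOX gene against its paralogue number, by cluster. Bars are 95% intervals from limma, filled points mark the 4 genes whose groups did not overlap and open points the others. HOXD4 is highest at 0.82 and HOXB5 lowest at -0.51. Pearson r with the number was 0.006 over the points of all clusters together. Within clusters it was 0.07 for HOXB, 0.42 for HOXC and -0.30 for HOXD.

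Different probe sets of a HOX gene often pointed in different directions. Of the 13 genes with more than 1 probe set, 6 had log2 fold changes of both signs, 3 had only values above 0 and 4 only values below. HOXB5 had -0.51 from its brighter probe set and 0.40 from the other, which read 94.7, 46.0 and 96.2 units in VAMP7 siRNA cells and 61.6, 56.4 and 24.9 units in scrambled siRNA cells. The brighter one carries the identifier suffix that the array maker gives to probes that may also bind other transcripts. Which HOXB5 probe set reads the gene better was not tested. HOXB7 had 0.21, 0.21 and -0.44 from its 3 probe sets, and the one at -0.44 carries the same suffix. HOXB3 had -0.03 and 0.34, and HOXD9 had -0.31 and 0.24. The second HOXB8 probe set did not overlap between groups, with 4.22, 6.03 and 3.71 units in VAMP7 siRNA cells and 13.7, 18.2 and 7.03 units in scrambled siRNA cells (log2 fold change -0.20), while the brighter one had 0.005.

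**Figure D5:**
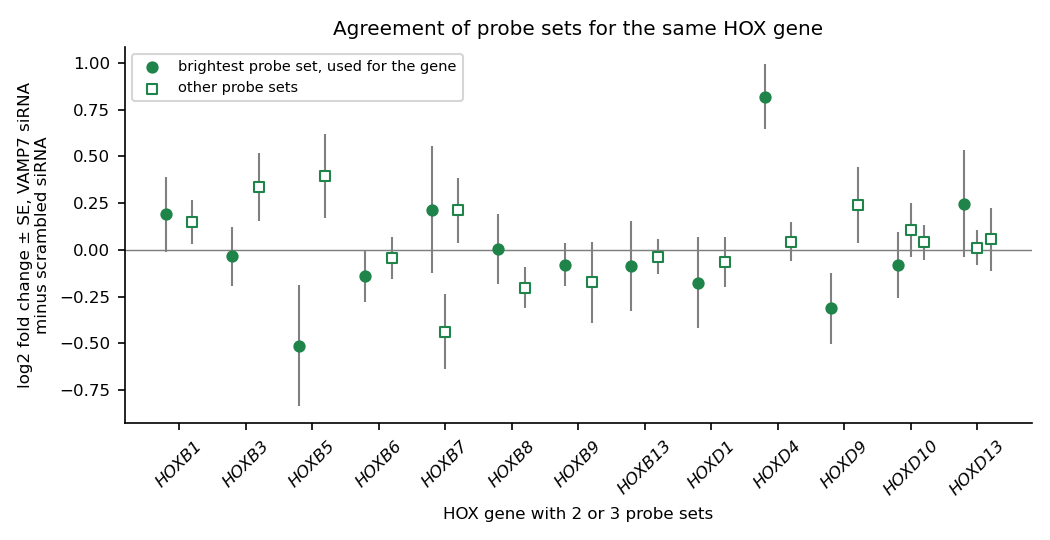
Log2 fold change of every probe set of the 13 HOX genes that had more than 1, with bars of ± 1 SE from limma, circles for the brightest probe set and squares for the others. Probe sets of 6 genes lie on both sides of 0, HOXB5 among them with -0.51 and 0.40.

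The genes that work with or on the HOX clusters were above background more often than the HOX genes, and none was called. All 10 measured TALE cofactors were above background on every array, 6 with a log2 fold change above 0 and 4 below, and none had an unadjusted p under 0.05. MEIS1 had 0.24 and PBX2 had 0.16 (limma adjusted p = 0.781 and 0.820). All 26 measured Polycomb genes and other repressors of the list were above background, 17 above 0 and 9 below. EZH1, a histone H3 lysine methyltransferase of Polycomb, read 766 ± 40.1 units in VAMP7 siRNA cells and 587 ± 41.2 units in scrambled siRNA cells (SD, n = 3 each), with a log2 fold change of 0.36 (limma adjusted p = 0.622), and the Polycomb ring-finger gene PCGF5 had -0.23.

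Of 22 measured upstream activators 16 were above background, 15 with values above 0 and 7 below. MEN1, a subunit of the MLL histone methyltransferase complexes, had a log2 fold change of 0.23 and the trunk growth factor GDF11 had 0.30. The 3 near background were CDX1, CDX2 and CDX4, the caudal factors that switch on trunk HOX genes, chosen for naming after their values were seen. Of 12 retinoic acid response genes outside the clusters 10 were above background, 6 with values above 0 and 6 below, and the retinol transporter STRA6 had 0.46 (limma adjusted p = 0.654) and NR2F1 had 0.29.

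Most genes beside the clusters were above background, unlike most HOX genes. Of 23 measured neighbours 18 were above background (78.3%, against 59.7% of all genes), 1 was mixed and 4 were near background. The 4, TTLL6, SKAP1, PRAC1 and EVX1, thus read like the 15 HOX genes near background and are named after their values were seen. Of the 23 neighbours 10 had log2 fold changes above 0 and 13 below. CALCOCO1 beside HOXC had 0.30 and SNX10 beside HOXA had -0.28. Of 12 measured noncoding transcripts of the clusters 2 were above background (HAGLR and HAGLROS, both of the HOXD cluster, named after their values were seen), 3 were mixed and 7 were near background, with 8 values above 0 and 4 below. HOTTIP, transcribed from the 5′ end of HOXA, was mixed. It averaged 114 ± 41.0 units in VAMP7 siRNA cells and 71.3 ± 24.6 units in scrambled siRNA cells (SD, n = 3 each). Its log2 fold change was 0.42 (limma adjusted p = 0.794). HOXC-AS3 had 0.30 but was near background on every array, with 43.1, 1.67 and 11.7 units in VAMP7 siRNA cells.

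The defining markers of embryonal carcinoma cells were above background. Of 15 measured pluripotency and embryonal carcinoma markers 14 were above background on every array, 9 with log2 fold changes above 0 and 6 below. TERT had 0.53 and GDF3 had -0.26 (limma adjusted p = 0.611 and 0.739). Of 16 neural markers 11 were above background, 9 above 0 and 7 below. SYP, which was near background on every array, had 0.30, and NEFL had -0.17. Of 14 fibroblast markers 9 were above background, 6 above 0 and 8 below, with PDGFRA at -0.66 (limma adjusted p = 0.499) and S100A4 at -0.33, and COL3A1, DCN, POSTN and FAP were near background on every array. The part of these cell types in the HOX values was not tested. Across all 9 gene lists the medians lay between -0.06 and 0.10, against 0.003 for all genes, and no listed gene had an adjusted p under 0.05 in limma.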

How the data were processed

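RNA of 6 NTERA2/D1 samples was read on arrays with 54675 probe sets. The deposited values are linear intensities per probe set. Per the submitters' processing notes RMA was used, but the values are not on a log2 scale as RMA gives, and each array has the same 2% trimmed mean, about 500.1 units; the software behind this scaling is not given in the sources used here. From the deposited intensities, log2(intensity + 50) was computed, the brightest probe set by mean over the 6 arrays stood for a gene, and limma 3.58.1 in R 4.3.3 was fitted to all 19775 genes (lmFit and eBayes, 3 arrays against 3), with Benjamini-Hochberg adjustment over all genes; the same fit was made over 54613 probe sets. The fit was tested on simulated data with changes larger than any HOX log2 fold change of the main fit. That test therefore does not cover changes of the HOX size. Gene names came from GEO's platform annotation.

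Values on every array are given for members above background on all arrays, with an unadjusted p under 0.05, or whose groups do not overlap, and also for HOXB5 and a second HOXB8 probe set, chosen after their values were seen. From each list the 2 genes with the smallest p are named. The members and lists were chosen with earlier results of these data known. The titles number biological replicates, but the descriptions of all VAMP7 siRNA samples carry the number 1 and nothing says that cultures were separate, so p-values cover only the scatter among these arrays, part or all of which may be technical. The number of arrays limits the precision. Offsets, probe set choice, normalization, a filter, the variance model, a replicate block and each array left out were tried as alternatives.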

Additional observations from a re-analysis of the deposited data

How the results depend on the processing

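No HOX gene had an adjusted p under 0.05 in any alternative that kept HOX genes in the fit, and the HOXD4 adjusted p, 0.499 as reported, was 0.525 to 0.775 over them. The titles' replicate numbers did not pair the arrays (correlations of same-numbered deviations -0.007, 0.014 and -0.016); with the block 4 HOX genes had an unadjusted p under 0.05. Leaving out 1 array at a time, that count was 3 to 5, against 5 on all arrays. It was 3 without VAMP7 siRNA replicate 1, VAMP7 siRNA replicate 3 or scrambled siRNA replicate 2. HOXD4 was among them every time, but the other genes changed. HOXD9 entered without VAMP7 siRNA replicate 3, and HOXB1 and HOXD12 without scrambled siRNA replicate 1. HOXB4, HOXC5 and HOXC12 entered without scrambled siRNA replicate 3. The unadjusted p was over 0.05 for HOXC4 without VAMP7 siRNA replicate 2 or 3 or scrambled siRNA replicate 1 or 3, for HOXA2 without VAMP7 siRNA replicate 1 or scrambled siRNA replicate 2 or 3, for HOXD11 without VAMP7 siRNA replicate 3 or scrambled siRNA replicate 1, and for HOXC8 without any array but VAMP7 siRNA replicate 2. Fitting only genes at or above the median gene left no HOX gene and gave no value. The median HOX log2 fold change was -0.06 on all arrays, 0.05 without VAMP7 siRNA replicate 3 and 0.01 without scrambled siRNA replicate 3; the cause was not tested. HOX probe sets above background numbered 2, but 1 with the median of all probe sets as threshold, 4 with the 90th percentile of olfactory receptors and 7 by the mean over the 6 arrays. Those near background numbered 29, and 30, 24 and 37 under the same alternatives in that order. The share of HOX genes near background thus also rests on the threshold. Over only the genes above background the median log2 fold change was -0.30 for HOXC and for central genes and -0.23 for anterior genes, each a single gene by construction. Without VAMP7 siRNA replicate 1, an alternative chosen after seeing the data, 5 HOX genes did not overlap (HOXB2 added), against 23.5% of all genes. VAMP7 kept its call, at -4.01 to -3.42. Near background, signal limits what a fold change can show.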
